A study of Mus musculus with 4 samples.

Results

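The C-type clustered protocadherins are the 5 genes Pcdhac1, Pcdhac2, Pcdhgc3, Pcdhgc4 and Pcdhgc5, which lie at the downstream ends of the Pcdha and Pcdhg gene arrays of the mouse. They were taken by symbol, after Ensembl identifiers were matched to the GENCODE vM21 annotation, and all 5 were among the 37437 genes measured. RNA came from 4 libraries of primary mouse cortical culture, a mixed culture of cortical neurons and other cells. In 2 libraries, called shCTCF, adeno-associated virus had been used to knock down the insulator protein CTCF. In the 2 control libraries, called shLAC, the same kind of virus carried a knockdown of lacZ, a bacterial gene. All 4 thus shared viral infection and differed in the target. The age of the donor animals, the time after infection and whether the replicates were separate cultures do not appear in the sources at hand. The p-values therefore measure spread among these 4 libraries alone, part or all of which may be technical.

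Clustered protocadherins are cadherin-like adhesion proteins of the neuronal surface that bind the same isoform on a facing membrane. Each gene of the Pcdha and Pcdhg arrays has its own promoter and a large variable exon, which encodes the extracellular and transmembrane parts and is spliced to constant exons shared by the whole array. The alternate isoforms are switched on at random in each neuron, whereas the C-type isoforms are expressed in a regular, cell type dependent way. CTCF and cohesin are known to loop distant enhancers to promoters that carry a conserved CTCF-binding element. That element is present at nearly all alternate promoters, at Pcdhac1 and at Pcdhgc3, and is known to be missing from Pcdhac2, Pcdhgc4, Pcdhgc5 and Pcdhb1.

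The 5 genes lie on the + strand of chromosome 18 (GRCm38, the assembly also called mm10), where each is annotated as protein-coding. Pcdhac1 (ENSMUSG00000103255) spans 37090013 to 37187657 and Pcdhac2 (ENSMUSG00000102697) spans 37143503 to 37187657, so that they share their downstream end. Pcdhgc3 (ENSMUSG00000102918) runs from 37806364, Pcdhgc4 (ENSMUSG00000023036) from 37815079 and Pcdhgc5 (ENSMUSG00000102543) from 37819513, all to 37841873. The coding transcript of each has 4 exons. Start to start, Pcdhac1 and Pcdhac2 are 53490 bp apart, Pcdhgc3 and Pcdhgc4 8715 bp, and Pcdhgc4 and Pcdhgc5 4434 bp.

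Because constant exons are shared, only part of each annotated gene is its own. Bases that lie in no other gene of the array made up 47.2% of the exonic length of Pcdhac1, 51.4% of Pcdhac2, 61.5% of Pcdhgc3, 62.1% of Pcdhgc4 and 72.2% of Pcdhgc5. Reads in the remaining bases had to be divided among isoforms by estimation, so the level of any single isoform is uncertain to that extent. The coding part of the variable exon was 2436 bases in Pcdhac1, 2562 in Pcdhac2, 2430 in Pcdhgc3, 2451 in Pcdhgc4 and 2460 in Pcdhgc5.

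In sequence the C-type variable exons were about as far from each other as from the alternates. Nucleotide identity in global alignment lay between 53.5% and 58.3% over the 10 pairs of C-type exons, with Pcdhgc4 and Pcdhgc5 the closest pair. Alternates of the same array were at a median of 70.1% to each other over 237 pairs. C-type exons were at a median of 54.5% to alternates of their own array over 81 pairs. The ratio of observed to expected CpG in the variable exon was 0.41 in Pcdhac1, 0.49 in Pcdhac2, 0.71 in Pcdhgc3, 0.45 in Pcdhgc4 and 0.36 in Pcdhgc5. Among alternates its median was 0.67 in Pcdha and 0.57 in Pcdhg.

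The values were transcript abundances per library (TPM), which correct for gene length and so allow levels of different genes to be compared. Sequencing depth cannot be read from TPM and is unknown here. In shLAC replicate 2, 13 satellite-like predicted genes took 20.2% of all TPM, against 0.405% to 1.86% in the other 3 libraries, and TPM of a library add up to a fixed total. In TPM as deposited the median gene of the fit was higher in shCTCF by 0.17 on the log2 scale. Levels called scaled are TPM divided by a median-ratio factor per library, computed over 11268 protein-coding genes; the factors ran from 0.832 to 1.10. After scaling, log2 levels of these genes correlated across genes at r = 0.9946 within shLAC and r = 0.9965 within shCTCF. Between groups r lay from 0.9899 to 0.9921; genes are not independent replicates. The targeted gene, Ctcf, was at 8.11 and 8.80 scaled TPM in shLAC and at 3.25 and 3.40 in shCTCF, so the libraries bore out their labels.

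In CTCF knockdown, Pcdhac2 rose, and no C-type gene fell past the threshold. In Pcdhgc4 both knockdown libraries were higher than both controls and in Pcdhgc5 both were lower, without passing the test over all genes. Pcdhgc3 overlapped between the groups, and Pcdhac1, far below the others, was lower in both knockdown libraries and too low to enter the test. The other 4 genes were tested by limma on log2(scaled TPM + 1) with Benjamini-Hochberg adjustment over 11268 genes, each at 1 TPM or more in at least 2 libraries. A gene was called at an adjusted p below 0.05. Of the 4 members in the fit 1 was called higher and 0 lower, beside 2.58% of all genes called higher and 3.48% called lower. At an unadjusted p below 0.05 stood 3 of the 4, and 23.6% of all genes of the fit. Their median log2 difference was 0.20, against -0.00043 over all genes of the fit. Groups did not overlap, after scaling, in Pcdhac2 and Pcdhgc4 (higher) and in Pcdhgc5 and Pcdhac1 (lower); of all genes in the fit 27.5% were higher and 27.1% lower without overlap, so separation alone was common. In bulk RNA fewer cells of a type and less RNA per cell cannot be told apart.

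**Figure D1:**
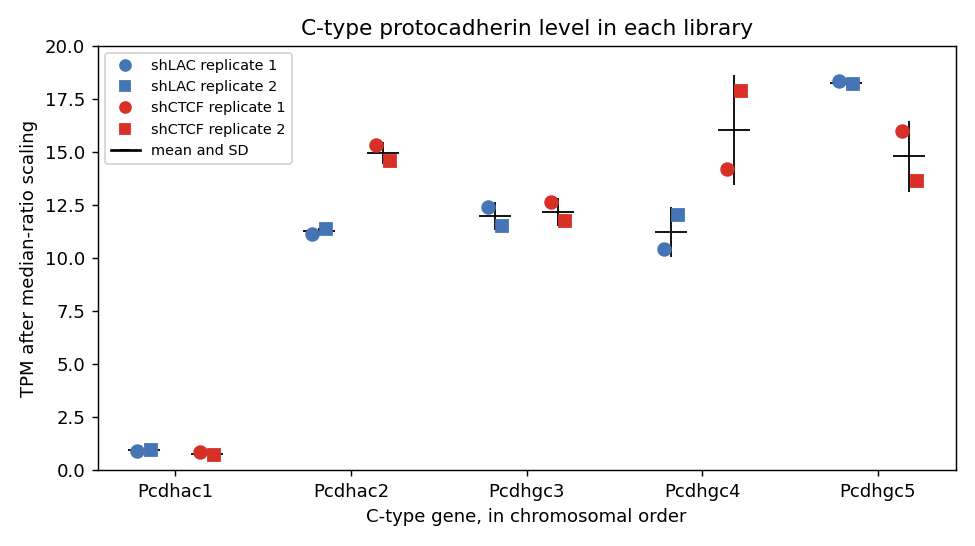
Scaled TPM (vertical axis) of the 5 C-type genes in each of the 4 libraries; circles are replicate 1, squares replicate 2, and the black bars give the mean and SD of each group. Pcdhac2 and Pcdhgc4 lie higher in both shCTCF libraries, Pcdhgc5 lies lower in both, Pcdhgc3 overlaps and Pcdhac1 stays below 1.

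Pcdhac2, which is needed for the spacing of serotonergic axons, reaches the cell surface on its own. Its deposited TPM were 11.67 and 9.47 in control and 16.80 and 15.28 in knockdown. After scaling these were 11.1 and 11.4 against 15.3 and 14.6. The replicates of a group lay close together, and the groups did not overlap. The mean went from 11.3 ± 0.169 to 15.0 ± 0.525 scaled TPM (SD, n = 2), 133% of control. The log2 difference was 0.38 (SE 0.0538, 95% interval 0.25 to 0.51, limma adjusted p = 0.0156). In size it was 164th from the top of 11268 genes. The call was lost in TPM as deposited (log2 difference 0.56, limma adjusted p = 0.243). It was also lost over all genes past the filter, noncoding and satellite-like genes included (0.37, limma adjusted p = 0.0642). Without shCTCF replicate 1 (0.35) or shCTCF replicate 2 (0.41) it was lost too.

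Pcdhgc4, the gamma isoform on which the survival of neurons depends, needs other protocadherins to carry it to the surface. Its deposited TPM were 10.90 and 10.02 in control, then 15.55 and 18.71 in knockdown. Scaled, they were 10.4 and 12.1 against 14.2 and 17.9. Both knockdown libraries were above both controls, with a wider gap between replicates than in Pcdhac2. The mean went from 11.2 ± 1.16 to 16.0 ± 2.60 scaled TPM (SD, n = 2), 143% of control. The log2 difference of 0.47 (SE 0.113, 95% interval 0.20 to 0.74) was larger than that of Pcdhac2 and 89th from the top, but the limma adjusted p was 0.0630. With 1 library left out, its group holds a single library that is assumed to vary like the other group, whose spread enters the fit with that of all genes. On that assumption it passed without shLAC replicate 1, shLAC replicate 2 or shCTCF replicate 1, with log2 differences of 0.37, 0.57 and 0.63 (limma adjusted p = 0.0159, 0.00199 and 0.0236). Without shCTCF replicate 2, the library in which it was highest, the log2 difference was 0.32 (limma adjusted p = 0.206).

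Pcdhgc5, which appears late in cortical development and is known to bind GABA receptors, was the most abundant of the 5 in control cells. As deposited, control libraries held 19.20 and 15.13 TPM and knockdown libraries 17.53 and 14.28 TPM, where the groups overlapped. After scaling the shLAC libraries were nearly equal, at 18.3 and 18.2, and both shCTCF libraries were lower, at 16.0 and 13.6. The mean went from 18.3 ± 0.104 to 14.8 ± 1.67 scaled TPM (SD, n = 2), 81.0% of control. The log2 difference of -0.29 (SE 0.0767, 95% interval -0.47 to -0.11) did not pass, with a limma adjusted p of 0.0826. It was -0.10 in TPM as deposited and -0.18 without shCTCF replicate 2 (limma adjusted p = 0.813 and 0.301). On the same assumption about the lone library it passed without shLAC replicate 1, shLAC replicate 2 or shCTCF replicate 1, at log2 differences of -0.28, -0.30 and -0.40 (limma adjusted p = 0.0391, 0.0449 and 0.0370).

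Counts of called members moved with the setting, as did the background. In TPM as deposited 0 of 4 were called higher and 0 lower, beside 1.01% and 0.453% of all genes. Over all genes past the filter, noncoding and satellite-like genes included, the counts were 0 and 0, beside 0.367% and 0.679%. With the replicate number as a block 2 were called higher (Pcdhac2 and Pcdhgc4) and 1 lower (Pcdhgc5), beside 5.3% and 6.35%. Without shCTCF replicate 1 the counts were 1 (Pcdhgc4) and 1 (Pcdhgc5), beside 0.956% and 1.89%. Without shCTCF replicate 2 they were 0 and 0, beside 0.413% and 0.916%.

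**Figure D2:**
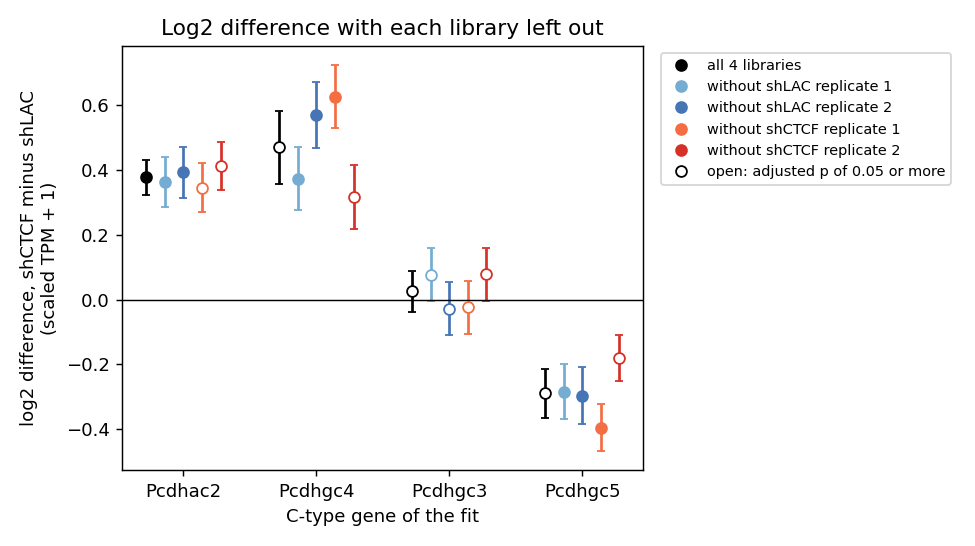
Log2 difference (vertical axis, shCTCF minus shLAC, bars are SE) of the 4 tested C-type genes with all libraries (black) and with each library left out; filled points pass an adjusted p of 0.05. Pcdhac2 stays between 0.35 and 0.41, Pcdhgc4 spans 0.32 to 0.63, Pcdhgc5 spans -0.40 to -0.18, and Pcdhgc3 changes sign around 0.

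Pcdhgc3, which restrains Wnt signalling by binding Axin1 and promotes dendrite branching, had deposited TPM of 13.01 and 9.56 in control and 13.88 and 12.29 in knockdown. Its scaled values of 12.4 and 11.5 in shLAC and 12.7 and 11.7 in shCTCF overlapped. The log2 difference was 0.03 (SE 0.0645, limma adjusted p = 0.847). The 95% interval, -0.13 to 0.18, leaves room for a small difference in either direction.

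Pcdhac1, whose protein also depends on other isoforms to reach the surface, was far below the other 4 C-type genes. Control libraries held 0.96 and 0.81 TPM and knockdown libraries 0.92 and 0.77 TPM, where the groups overlapped. Scaled, it was at 0.917 and 0.974 in shLAC and lower in both knockdown libraries, at 0.839 and 0.735. The mean log2 difference was -0.12. No library reached 1 TPM, so Pcdhac1 is not in the count of called genes. With the filter lowered to 0.5 TPM, a setting chosen after the data were seen, it entered the fit at a limma adjusted p of 0.383, and with no filter at 0.488.

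The order of the C-type genes by mean scaled level differed between the groups. In shLAC, Pcdhgc5 led at 18.3, followed by Pcdhgc3 at 11.96, Pcdhac2 at 11.3, Pcdhgc4 at 11.2 and Pcdhac1 at 0.946. The ranges of Pcdhac2 and Pcdhgc4 overlapped there, and those of Pcdhgc3 and Pcdhgc4 did as well, while Pcdhgc5 was apart from all others. In shCTCF, Pcdhgc4 led at 16.0, followed by Pcdhac2 at 15.0, Pcdhgc5 at 14.8, Pcdhgc3 at 12.2 and Pcdhac1 at 0.787. The ranges of neighbours overlapped for Pcdhgc4 with Pcdhac2 and for Pcdhac2 with Pcdhgc5. Those of Pcdhgc4 and Pcdhgc5 overlapped as well. In shCTCF replicate 1 Pcdhgc5 was still the highest, at 16.0, with Pcdhac2 at 15.3 and Pcdhgc4 at 14.2. Only in shCTCF replicate 2 did Pcdhgc4 lead, at 17.9. Pcdhgc3 and Pcdhac1 were each apart from the gene above.

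Ratios between members do not depend on library scale and were compared next. The ratio of Pcdhgc4 to Pcdhgc5, neighbours 4434 bp apart, was 0.568 and 0.662 in shLAC and 0.887 and 1.31 in shCTCF. The ratio of Pcdhac2 to Pcdhgc5 went from 0.608 and 0.626 to 0.958 and 1.07. Pcdhac2 to Pcdhgc3 was 0.897 and 0.991 in shLAC and 1.21 and 1.24 in shCTCF. By contrast, Pcdhac2 to Pcdhgc4 overlapped, at 1.07 and 0.945 in shLAC and 1.08 and 0.817 in shCTCF, as did Pcdhac1 to Pcdhgc5. A 2-sided exact permutation test of 2 against 2 libraries cannot go below p = 0.3333 (at best 0.417 adjusted here over the 10 pairs), so none of the 10 ratios, which share the same 5 genes, could pass 0.05.

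C-type genes held more of each array in CTCF knockdown. They made up 38.6% and 35.3% of the summed TPM of the 14 Pcdha genes in shLAC, and 52.2% and 53.8% in shCTCF. Pcdhac2 alone went from 34.1% ± 2.18 to 50.4% ± 1.252 of that array (SD, n = 2). Of the summed TPM of the 22 Pcdhg genes, C-type genes held 42.2% and 42.6% in shLAC and 48.5% and 49.6% in shCTCF. Within that array, Pcdhgc4 went from 11.5% ± 1.15 to 18.3% ± 3.13, Pcdhgc3 from 12.2% ± 0.712 to 13.9% ± 0.621, and Pcdhgc5 from 18.7% ± 0.165 to 16.9% ± 1.75. Neither array's C-type share overlapped between the groups, and each gave an exact permutation p of 0.3333, the smallest possible. Of all clustered protocadherin TPM, the 5 genes held 30.4% and 29.7% in shLAC and 39.9% and 41.1% in shCTCF.

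**Figure D3:**
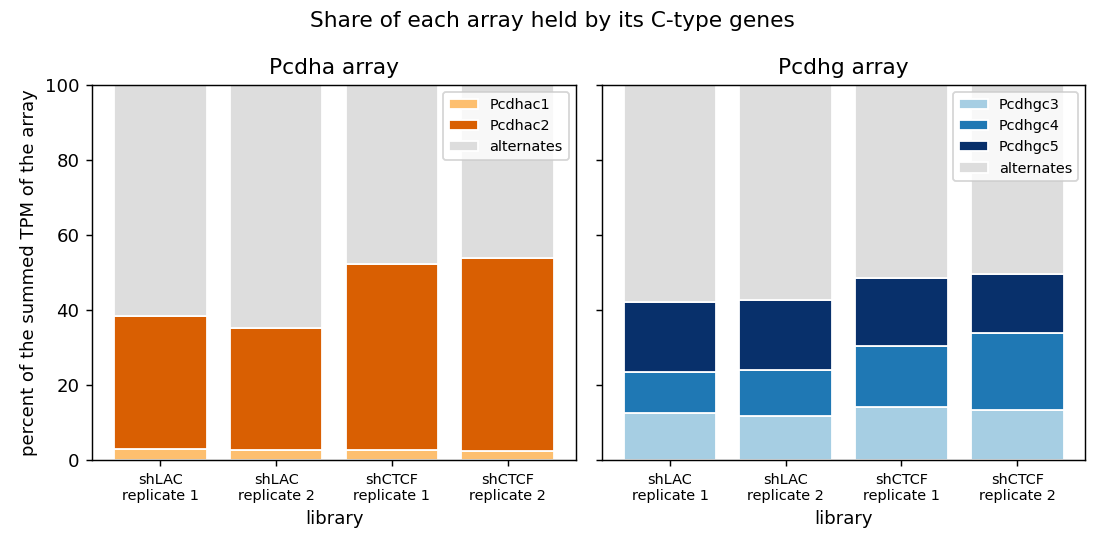
Percent of the summed TPM of the Pcdha array (left, 14 genes) and the Pcdhg array (right, 22 genes) held by each C-type gene and by the alternates together, 1 bar per library. The C-type part is taller in both shCTCF libraries; the bars show shares, so each part also depends on the level of the other.

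The shares were read against the scaled sums of both parts. Summed over the 5 C-type genes, scaled TPM went from 53.7 ± 0.603 to 58.8 ± 0.334 (SD, n = 2), 109% of control. The 2 Pcdha members went from 12.2 ± 0.210 to 15.7 ± 0.599, 129% of control, and the 3 Pcdhg members from 41.5 ± 0.394 to 43.02 ± 0.265, 104% of control. The sum of the 12 alternate Pcdha genes went from 20.9 ± 2.41 to 13.98 ± 1.18, 66.8% of control. The 19 alternate Pcdhg genes went from 56.3 ± 0.0868 to 44.7 ± 1.09, 79.3% of control. Among alternates in the fit, 1 of 9 Pcdha genes and 8 of 18 Pcdhg genes were called lower and 0 were called higher, against the 3.48% of all genes called lower. The most abundant alternates were Pcdha6, at 2.55 ± 0.270 and 1.91 ± 0.216 scaled TPM, and Pcdhga3, at 6.52 ± 0.258 and 4.67 ± 0.445. In the Pcdhb array, which has no C-type gene, 17 of 21 were called lower and the most abundant was Pcdhb9, at 4.96 ± 0.428 and 2.24 ± 0.0869.

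The 4 well expressed C-type genes were also the 4 most abundant of all 58 clustered protocadherins by mean scaled TPM, and were so in each group. By log2 difference, a scale that understates fold changes of low genes, Pcdhgc4 and Pcdhac2 held the 2 highest places among the 58. Pcdhgc3 was 7th, Pcdhac1 11th and Pcdhgc5 27th. As a percent of control, Pcdhac2 (132.7%) was close to Pcdhb1 (133.7%) and the alternate Pcdhgb7 (132.5%), both far less abundant. Pcdhgb7 was higher in both knockdown libraries and did not pass (log2 difference 0.26, limma adjusted p = 0.101). The alternate gene nearest in position to Pcdhgc3, Pcdhga12, differed by -0.68 on the log2 scale (limma adjusted p = 0.00649), beside 0.03 in Pcdhgc3. Of the genes whose promoters are known to lack the CTCF-binding element, Pcdhac2 and Pcdhgc4 were higher in both knockdown libraries and Pcdhgc5 was lower in both. The other, Pcdhb1, was at 0.468 and 0.637 scaled TPM in shLAC and at 0.648 and 0.830 in shCTCF. It was below the filter and not tested. Pcdhga12, Pcdhgb7 and Pcdhb1 were singled out after their values were seen.

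**Figure D4:**
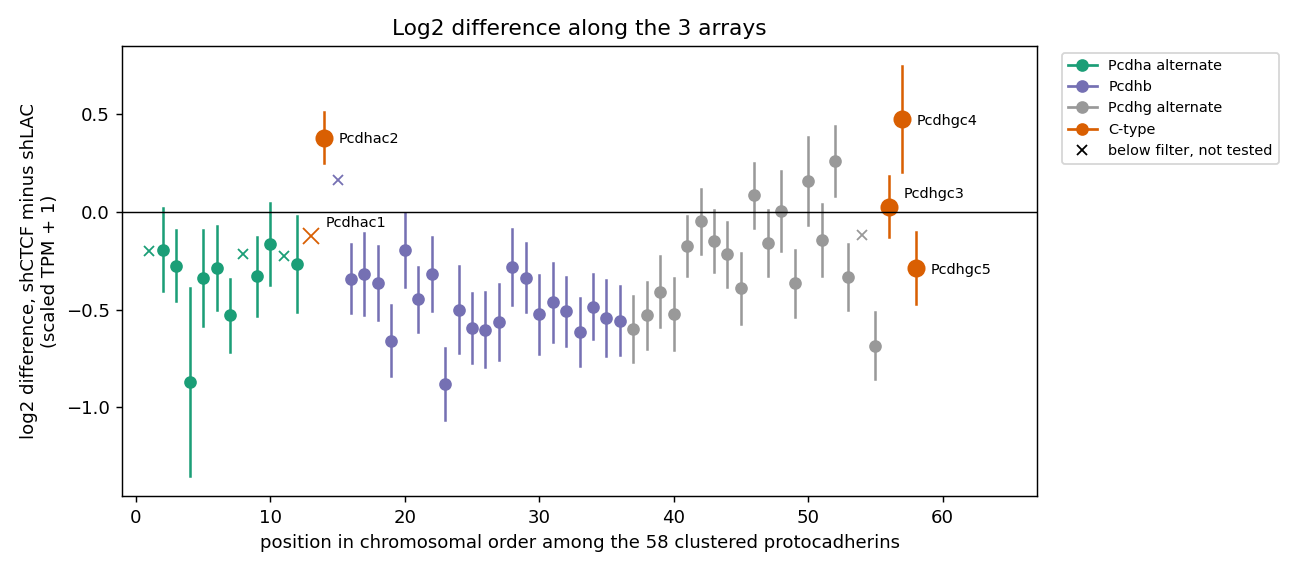
Log2 difference (vertical axis, shCTCF minus shLAC, bars are 95% intervals) of the 58 clustered protocadherins in chromosomal order, with C-type genes in orange and genes below the filter, which were not tested, as crosses. Pcdhac2 and Pcdhgc4 are the 2 highest points, while Pcdhgc5, at the end of the Pcdhg array, lies at -0.29.

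Genes whose levels over the 4 libraries were most like each member's were sought among the other 11267 genes of the fit, by the root mean square difference of centred log2 levels. Nearest to Pcdhac2 were Ccdc71l (0.0150), Pnma3 (0.0157) and Slc26a6 (0.0165), and nearest to Pcdhgc4 were Cyb561a3 (0.0339), Rasd2 (0.0383) and Fcor (0.0435). Pcdhgc3 was closest to Wdfy1 (0.00528), Gramd1b (0.00555) and Hagh (0.00563), and Pcdhgc5 to Kcnk4 (0.00876), Ptn (0.0173) and Sstr2 (0.0198). Such likeness was common: within a difference of 0.1 lay 634 genes for Pcdhac2, 46 for Pcdhgc4, 954 for Pcdhgc5 and 6586 for Pcdhgc3. No clustered protocadherin was among the nearest 3 of any member.

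Among 18 tested regulators of the arrays, such as CTCF, cohesin and its loader, 1 rose and 1, the target Ctcf itself, fell. Over all genes of the fit 2.58% were called higher and 3.48% lower. Ctcf fell by 1.13 on the log2 scale (SE 0.0666, limma adjusted p = 0.00288), to 39.3% of control. Stag1, a cohesin subunit, rose from 4.87 and 4.92 to 8.25 and 7.85 scaled TPM (log2 difference 0.62, limma adjusted p = 0.00523). The cohesin subunits Rad21 and Smc3 and the loader Nipbl overlapped between groups, with log2 differences of 0.06, -0.02 and 0.04. Smchd1, a chromatin protein that silences clustered protocadherins, was at -0.05, and none of these 4 passed. Another cohesin subunit, Smc1a, was lower in both knockdown libraries and did not pass (-0.12, limma adjusted p = 0.240). Without overlap between groups, 5 of the 18 were higher and 4 lower, Stag1 and Ctcf included. The shares over all genes were 27.5% and 27.1%. The median over the 18 was 0.01.

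Of 18 tested signalling partners, such as focal adhesion kinases, the WAVE complex and the protease Adam10, 1 fell and 0 rose. The shares over all genes were 3.48% lower and 2.58% higher. The median log2 difference of the 18 was -0.05. Nlgn1, a postsynaptic adhesion protein to which gamma protocadherins bind, fell from 27.4 and 26.8 to 21.7 and 21.3 scaled TPM (log2 difference -0.32, limma adjusted p = 0.0172). Its call was lost in TPM as deposited (-0.13, limma adjusted p = 0.777). It was also lost over all genes past the filter (limma adjusted p = 0.0655) and with no filter (limma adjusted p = 0.0526). Without either shCTCF library it was lost too, at log2 differences of -0.33 and -0.30. Axin1, the partner of Pcdhgc3, was at 0.18 (limma adjusted p = 0.185), and Adam10, a protease that cuts protocadherins, was at 0.05 (limma adjusted p = 0.687); neither passed. Of 9 tested genes that are no protocadherins and lie beside the arrays, 0 passed by limma, with log2 differences from -0.14 to 0.15. An unadjusted p below 0.05 was reached by 0 of the 9, and by 23.6% of all genes. Without overlap between groups, 4 of the 9 were higher and 3 lower, beside 27.5% and 27.1% of all genes. Among the 9 were Hars and Zmat2 upstream of Pcdha, at -0.11 and -0.08. Taf7 between Pcdhb and Pcdhg was at 0.02, and Diaph1 downstream of Pcdhg at 0.15.

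Markers of cell types were read in the same fit, in which 2.58% of all genes were called higher and 3.48% lower. Of 10 astrocyte markers 2 were called lower (Aqp4 and Slc1a3, at log2 differences of -1.07 and -0.52). Groups overlapped in 5, and 5 were lower without overlap, as were 27.1% of all genes. All 10 log2 differences were negative, as were 50.1% over all genes. The summed level of the 10 was 141 and 118 scaled TPM in shLAC replicates 1 and 2. In shCTCF replicates 1 and 2 it was 112 and 88.5, so replicate 1 was the higher in both groups. Of 10 pan-neuronal markers, Rbfox3 rose by 0.25 and Elavl4 fell by 0.47; the sums were 1230 to 1274 and 1263 to 1276. Excitatory markers summed to 205 to 215 and 238 to 247, with 0 of 8 called. The most abundant of them, Slc17a7 and Camk2a, were at 0.26 and 0.30. Of the 8 log2 differences 5 were positive and 3 negative, the lowest being Bcl11b at -0.22. Inhibitory markers summed to 248 to 257 and 256 to 259, and among 8 tested Slc32a1 rose by 0.36 and Calb2 fell by 0.23. Calb2, already in the inhibitory list, was also the called gene of 2 tested Cajal-Retzius markers. The other tested one, Reln, was at -0.0023. That list summed to 46.3 to 46.3 and 41.7 to 42.9, nearly all of it Reln and Calb2. Trp73, Lhx5 and Ebf3 of the same list stayed at or below 0.0954 scaled TPM in every library. Serotonergic neurons, in which Pcdhac2 is best known, were near 0: Tph2, Slc6a4 and Fev stayed at or below 0.120 scaled TPM in every library, and Slc18a2 was at 1.15 to 1.33. In the remaining lists Dcn, a fibroblast marker, fell by 0.48 and no other gene passed. These marker calls were not stable. Over all genes past the filter, or with no filter, none of Aqp4, Slc1a3, Rbfox3, Elavl4, Slc32a1, Calb2 and Dcn passed. In those settings the limma adjusted p was 0.0502 to 0.127. In TPM as deposited all but Aqp4 lost their calls, and Slc1a3, Elavl4, Calb2 and Dcn were at -0.32, -0.29, -0.037 and -0.35, Rbfox3 and Slc32a1 at 0.44 and 0.54. Without shCTCF replicate 2 the same 6 lost their calls, and without shCTCF replicate 1 Rbfox3, Slc32a1 and Calb2 did; Calb2 also lost its call without shLAC replicate 2. Oligodendrocyte lineage markers (0 of 7 called, with Olig1 and Pdgfra at 0.12 and 0.03) summed to 69.4 to 82.3 and 76.2 to 83.9. All 7 log2 differences were positive. Proliferation and progenitor markers (0 of 8, with Vim and Nes at 0.17 and 0.08) summed to 87.7 to 87.9 and 95.6 to 95.6. Here too all 8 were positive. Microglial markers (0 of 1, Cd68 at -0.17) summed to 2.46 to 2.97 and 2.25 to 2.44, fibroblast markers to 3.16 to 3.33 and 1.91 to 2.32, and endothelial markers, with Cldn5 at 0 in all 4, to at most 0.481. What part shifts in these markers had in the C-type values was not tested.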

How the data were processed

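Gene levels in the 4 libraries, 2 shLAC and 2 shCTCF by their titles, were deposited by the authors as TPM per Ensembl gene with 2 decimals. The tools RSEM 1.2.28 and CASAVA and the build mm10 come from the submitters' processing notes. For annotation release and strandedness, the sources used here give nothing. Of 37437 identifiers 37060 matched GENCODE vM21 (GRCm38). Protein-coding genes with a transcript of at least 300 nt and at least 1 TPM in at least 2 libraries, without 13 satellite-like genes, were scaled by median ratios and fitted as log2(TPM + 1) with limma 3.58.1 (R 4.3.3), a trended prior and no covariate, at an adjusted p of 0.05. On this scale fold changes of low genes are understated. Tools that need counts were not used. Shares and ratios used exact permutation tests. Variable exons were aligned with Biopython 1.88 (match score 1; penalties 1 for a mismatch, 3 to open and 0.5 to extend a gap).

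Members and lists were chosen with earlier results of these data known. By rule the text names all members, Ctcf, the 3 genes most like each tested member, from each list up to 2 called genes (or the 2 most abundant) and the most abundant alternate of each array; any further gene was picked with its values in view. In GENCODE vM21 the symbol Pcdha11 stands for 2 identifiers, which were kept apart.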

Additional observations from a re-analysis of the deposited data

How the results depend on the processing

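Pcdhac2 was positive under all 16 alternatives and Pcdhgc4 likewise, and Pcdhgc5 was negative under all 16. Many of these could not have changed the sign. Changes to the prior and the replicate block leave the log2 difference as it was. Leaving out a library could hardly reverse genes whose groups did not overlap after scaling. Pcdhac2 lost its call in TPM as deposited over coding genes or over all genes (log2 difference 0.56 in both, limma adjusted p = 0.243 and 0.179) and over all genes after scaling (0.37, limma adjusted p = 0.0642). With each library left out it ranged from 0.35 to 0.41, Pcdhgc4 from 0.32 to 0.63, Pcdhgc5 from -0.40 to -0.18 and Pcdhgc3 from -0.028 to 0.078; Pcdhgc3 was -0.028 without shLAC replicate 2 and -0.024 without shCTCF replicate 1. With TPM rescaled to a fixed sum over coding genes Pcdhgc4 passed (0.49, limma adjusted p = 0.0466). Pcdhac1, below the filter, was -0.031 in TPM as deposited and -0.24 with a pseudocount of 0.1. The count of called members also moved with the library left out, as did the count over all genes. Otherwise, of the settings that moved the count, 0 were called higher in TPM as deposited and over all genes, and 2 after rescaling to a fixed sum. That rescaling called 367 of all 11268 genes higher and 350 lower, beside 291 and 392 in the main fit.

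The replicate numbers are not said to mark a shared culture or day. Deviations of same-numbered libraries from their group means correlated at r = 0.2457 over 11268 genes. With the replicate block 2 members were called higher and 1 lower. Pcdhgc4 kept its 0.47 (limma adjusted p = 0.00415) and Pcdhgc5 its -0.29 (limma adjusted p = 0.0312), and over all genes 597 were called higher and 716 lower.

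Over all genes of the fit 291 were called higher and 392 lower. In TPM as deposited these were 114 and 51 over coding genes, and 246 and 116 over all genes, so that higher calls then outnumbered lower ones. Over all genes after scaling they were 47 and 87, with no filter 68 and 130, and with genes averaging 5 TPM or more 177 and 223. With each library left out they ranged from 46 to 520 and from 102 to 611, both lowest without shCTCF replicate 2. Among other named genes, Wdfy1 ranged from -0.023 to 0.088, Gramd1b from -0.026 to 0.072 and Hagh from -0.035 to 0.067 with each library left out, negative without shLAC replicate 2 or shCTCF replicate 1. In TPM as deposited Hars was 0.082, Zmat2 0.12 and Slc18a2 0.031. Olig1 ranged from -0.0094 to 0.24 and Pdgfra from -0.11 to 0.17 with each library left out, both lowest without shLAC replicate 2. The causes were not tested. The C-type share of each array stayed higher in shCTCF under all 6 alternatives, with the replicate block at an exact p of 0.5. These alternatives could not have reversed it. The shares did not overlap between groups, the ratio to alternates rises with the share, and the block leaves the difference unchanged. A filter of 0.5 TPM was chosen after seeing the data. Depth is unknown, so counting error could not be given.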
